A study of Mus musculus with 15 samples.

Results

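The genes described here encode the machinery of DNA replication and of mitosis. The set was a fixed list of 34 symbols: 6 subunits of the replicative helicase, 4 genes of the replication clamp and nucleotide supply, 3 genes of the G1/S switch, 20 genes that act in mitosis and the proliferation antigen Mki67. Each gene was read from 1 probe set, the one with the highest mean over all 15 arrays. Of the 34 genes, 33 were measured, out of 18193 genes on the arrays. Ccnb1 was not analysed here because no probe set carried its name alone. The expression values did not choose the genes, but they were proposed with results of these data known.

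RNA was taken from pituitaries of newborn mice (postnatal day 1) fed a high fat chow, pooled by genotype and hybridised to 1 Affymetrix Mouse Genome 430 2.0 array per pool. Pit1+/+ pools (wild type, n = 5) and Pit1dw/dw pools (n = 5) came from the DW/J strain. Pit1 is a POU-domain factor without which somatotrophs, lactotrophs and thyrotrophs do not form, and dw is its Snell dwarf allele. Titles call the pools biological replicates, but how many animals of which sex made up a pool is unstated. The p-values therefore measure only the spread between pools, estimated together with that of a further group of 5 arrays, not reported here. In pooled tissue, fewer dividing cells and less RNA per dividing cell cannot be told apart.

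Proliferating cells copy their genome in S phase and separate the copies in mitosis. The helicase subunits Mcm2 to Mcm7 are loaded at origins in G1 and unwind DNA during S phase. E2F factors switch on many replication genes at the G1/S boundary. Mitotic genes peak later, many of them through a short promoter element called the CHR (cell cycle genes homology region), often near CCAAT boxes, which are bound by the MuvB complex and by NF-Y. Around birth the pituitary still holds cycling progenitors and cycling hormone cells.

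Promoters are shown for leading mitotic and S phase genes, picked within each class by the smallest unadjusted p-values in dw/dw against wild type after the values were seen. The mitotic genes were Aurka, Bub1 and Kif20a, the last without an entry in the RefSeq table, and the S phase genes were Rrm2 and Tyms. The sequences are the 250 bases before the annotated start, from RefSeq on build GRCm38.p6, written 5′ to 3′ on the strand of the gene. The positions are chr2:172370571-172370820 (minus strand) for Aurka, chr2:127831860-127832109 (minus strand) for Bub1, chr12:24708004-24708253 (plus strand) for Rrm2 and chr5:30073626-30073875 (minus strand) for Tyms. Capitals mark each match, on either strand, to the CHR (TTTGAA), the CCAAT box (CCAAT) or an E2F element (TTTCCCGC, TTTCGCGC, TTTGGCGC or TTTGCCGC).
Aurka: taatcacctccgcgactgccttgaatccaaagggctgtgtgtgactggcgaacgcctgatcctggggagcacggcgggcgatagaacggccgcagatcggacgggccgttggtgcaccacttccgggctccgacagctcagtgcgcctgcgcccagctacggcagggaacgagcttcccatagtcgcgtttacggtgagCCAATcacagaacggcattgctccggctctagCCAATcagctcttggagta
Bub1: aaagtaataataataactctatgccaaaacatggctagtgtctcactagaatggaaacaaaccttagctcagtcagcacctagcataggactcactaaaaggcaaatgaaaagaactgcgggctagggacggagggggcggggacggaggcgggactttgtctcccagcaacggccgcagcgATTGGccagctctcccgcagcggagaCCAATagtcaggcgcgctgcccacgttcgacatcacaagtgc
Rrm2: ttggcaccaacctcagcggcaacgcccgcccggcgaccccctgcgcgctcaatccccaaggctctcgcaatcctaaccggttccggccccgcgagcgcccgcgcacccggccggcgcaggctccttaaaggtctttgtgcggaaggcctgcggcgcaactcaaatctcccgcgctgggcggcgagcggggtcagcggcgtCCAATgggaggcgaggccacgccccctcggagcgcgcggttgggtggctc
Tyms: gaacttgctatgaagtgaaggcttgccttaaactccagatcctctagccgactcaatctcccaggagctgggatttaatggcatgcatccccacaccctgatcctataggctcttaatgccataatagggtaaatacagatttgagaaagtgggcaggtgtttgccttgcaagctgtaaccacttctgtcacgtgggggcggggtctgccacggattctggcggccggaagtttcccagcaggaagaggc

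The motifs differed in frequency between the S phase and the mitotic genes. RefSeq held 28 promoters for 27 of the 33 measured genes, searched from 250 bases before to 50 bases after the start. Ccna2, Mcm4, Ccne2, Foxm1, Aurkb and Kif20a had no entry. The CHR letters occurred in 11 of 15 mitotic promoters (73.3%), in 1 of 12 S phase promoters (8.3%) and in 17.9% of all 32851 promoters in the table. All 11 of those mitotic promoters also held a CCAAT box, a combination found in 7.0% of all promoters. E2F letters occurred in 4 of 12 S phase promoters (33.3%), in 1 of 15 mitotic promoters (6.7%) and in 2.3% of all promoters. The CCAAT box was frequent in both sets, in 86.7% of the mitotic and 75.0% of the S phase promoters against 37.4% of all.

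In the sequences above, Aurka carries CCAAT boxes that begin 51 and 19 bases before the start, and its CHR match ends 38 bases after the start, beyond the stretch shown. Bub1 carries CCAAT matches that begin 68 (on the other strand) and 42 bases before the start and no CHR letters in the window. Rrm2 has a CCAAT box that begins 50 bases before the start, and Tyms holds none of the letters searched. Kif23, whose promoter is not shown, has a CHR match that ends 8 bases after the start and a CCAAT match that begins 7 bases before it. Mki67, also not shown, held 3 CCAAT boxes and 2 CHR matches. A match describes letters and is not evidence that a factor binds there.

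Some pools stood apart and bear on the results below. One label of wild-type pool 1 disagrees with its title, source name and strain, which all name Pit1+/+ in DW/J, and its title decided the group. Growth hormone (Gh), the main product of somatotrophs, was 14.22 log2 units in that pool, inside the wild-type range of 14.15 to 14.28, and lay between 7.15 and 10.31 in the dw/dw pools. Tshb, the thyrotropin beta subunit, was 11.67 to 12.29 in wild type and 6.20 to 7.01 in dw/dw. Pou1f1, which encodes Pit1, was not analysed here. Prph, a sensory neuron gene, exceeded 7 in 3 of the 10 pools (pool 3 of wild type, pools 2 and 3 of dw/dw) and was at most 3.78 in the other 7. Other genes of the ganglion and Schwann list did not all follow Prph. In dw/dw pool 5, Nefl (10.76), Nefm (9.28), Pou4f1 (8.98), Stmn2 (9.20) and Sox10 (7.60) lay above dw/dw pool 2. Prph (3.51), Avil (4.55), Isl2 (3.85) and Scn10a (3.31) lay below it. Array medians ran from 4.31 to 4.43, and the overall median of 4.37 served as the mark for a dim gene. Of the 33 genes only Tyms lay below it.

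**Figure D1:**
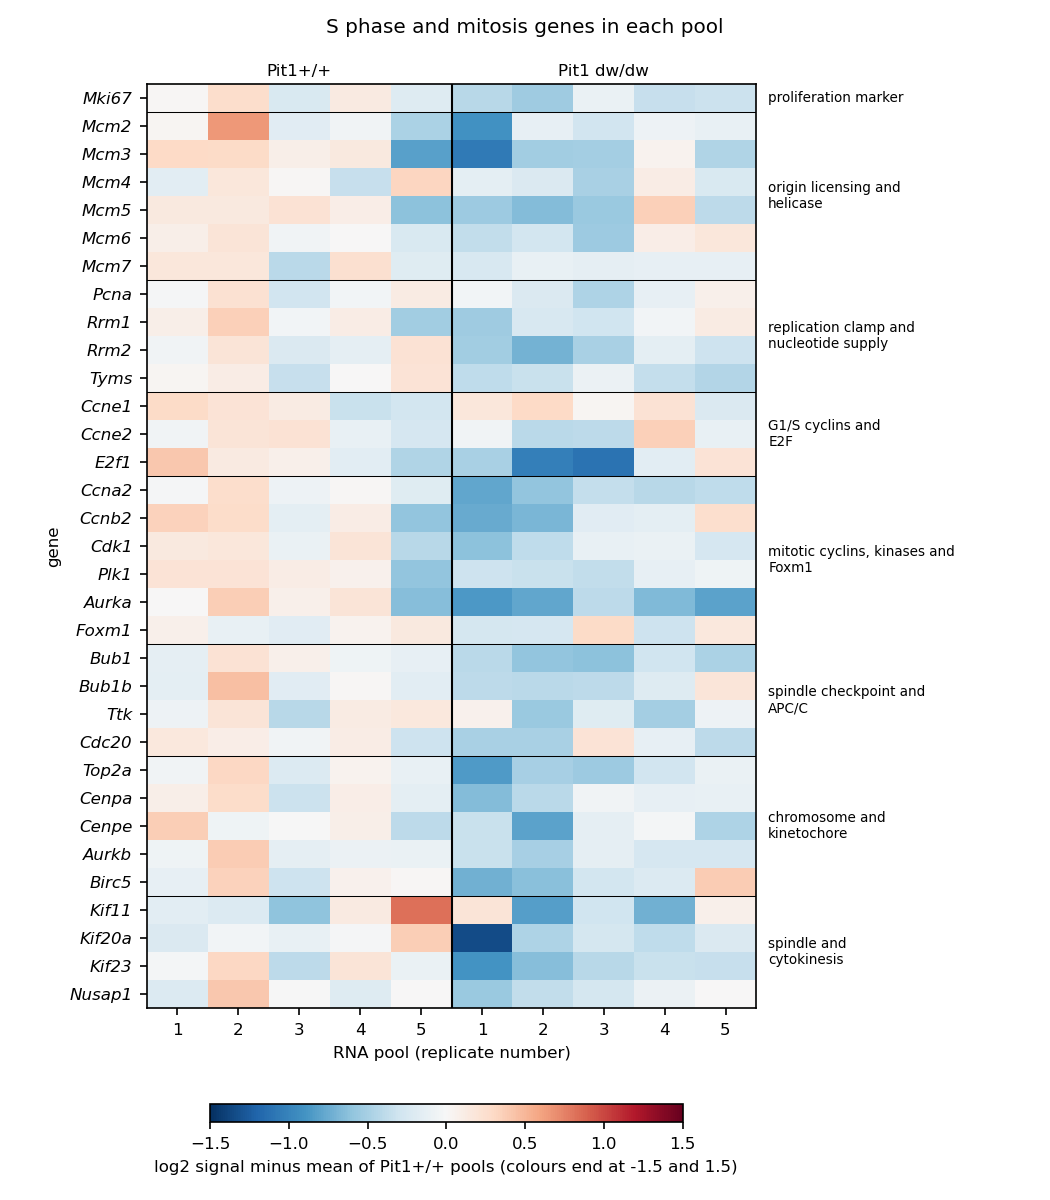
Colour shows the log2 signal of each S phase and mitosis gene in each of 10 RNA pools minus the mean of the 5 Pit1+/+ pools, with genes in rows by role and a scale that is symmetric about 0. Most genes are blue in the dw/dw pools, where 23 to 32 of 33 lie below the wild-type mean, and mostly red in wild-type pool 2, where 4 of 33 do.

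In Pit1dw/dw against Pit1+/+, which asks what changes within 1 strain when Pit1 is mutated, no gene of the set passed the test, although nearly all lay slightly lower. The fitted log2 change was below 0 for 32 of 33 genes (97%), against 54.8% of all genes. The median change was -0.29, against -0.02 for all genes. Changes ran from -0.70 for Aurka, a 1.63-fold lower signal, to 0.10 for Ccne1, the only gene above 0. The limma fit called 0 of 33 genes at an adjusted p under 0.05, beside 0.77% of all genes in either direction (0.605% lower and 0.165% higher). At an unadjusted p under 0.05, 8 of 33 genes (24.2%) were lower and none higher, against 5.49% of all genes lower, 2.97% higher and 8.46% in either direction. Those 8 genes were Mki67, Rrm2, Tyms, Ccna2, Aurka, Bub1, Kif20a and Kif23. In 3 of them, Ccna2, Bub1 and Kif20a, every dw/dw pool lay below every wild-type pool (9.09% of the set, against 1.91% of all genes), and no gene had the opposite order (0.863% of all genes).

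The counts depended on some pools and settings. At an unadjusted p under 0.05, 3 genes were lower without wild-type pool 2 and 4 without dw/dw pool 1, where 7.5% and 8.9% of all genes passed in either direction. With array weights, which give noisier arrays less influence, 15 genes were lower at that mark, beside 18.9% of all genes in either direction. After adjustment limma called 1 gene of 33 (3.03%), Aurka, with array weights (-0.77, adjusted p = 0.00656), beside 3.14% of all genes. Aurka was also called without wild-type pool 5 (-0.86, adjusted p = 0.0455), where 0.885% of all genes were. It was called as well without the 4 arrays of smallest SD (-0.82, adjusted p = 0.0267), where 0.907% of all genes were. Without the pools with Prph above 7, the median change of the set was -0.28. That limma fit called 0 genes of the set, beside 0.28% of all genes. At an unadjusted p under 0.05, 8 genes of the set passed, beside 6.8% of all genes in either direction. Of the 4 arrays of smallest SD, only wild-type pool 5 and dw/dw pool 1 are pools described here. The rest belong to a further group of arrays, not reported here, that shares in the fit and its spread. The settings that left out pools by Prph or by array SD were chosen after the data were seen.

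**Figure D2:**
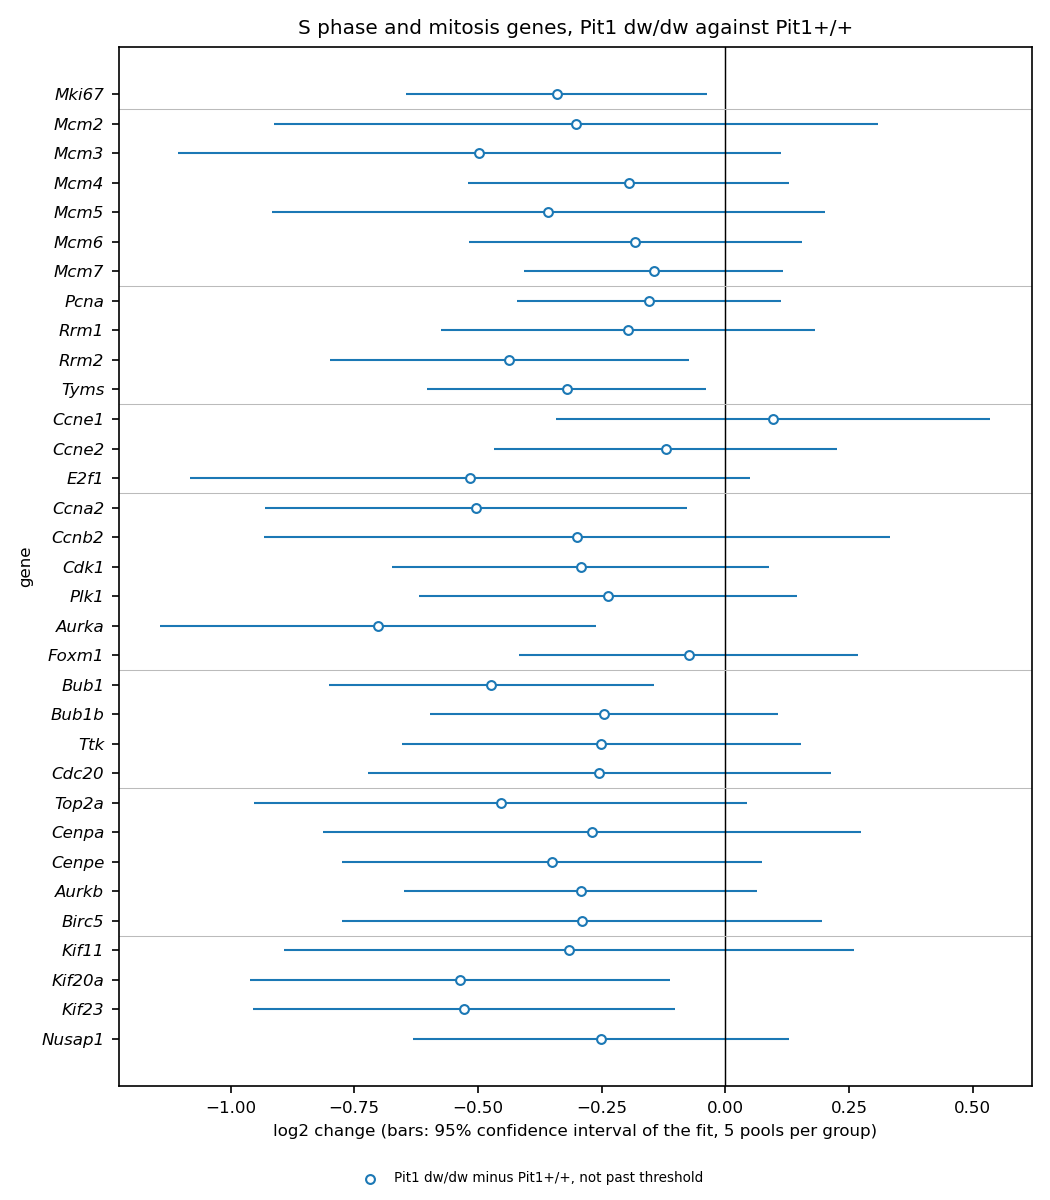
Points show the fitted log2 change of each gene in Pit1dw/dw against Pit1+/+, with 95% confidence intervals of the fit (5 pools per group). All points are open because no adjusted p is under 0.05, 32 of 33 lie below 0, and the intervals of 8 genes exclude 0 before adjustment.

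Mki67 encodes a nuclear antigen used to mark cycling cells. Its signal was 9.34, 9.58, 9.09, 9.46 and 9.13 in wild-type pools 1 to 5, and 8.90, 8.79, 9.22, 8.98 and 9.0 in dw/dw pools 1 to 5. In dw/dw, 4 pools lay below every wild-type pool, and pool 3 lay within the wild-type range. The change was -0.34 (SE 0.14, adjusted p = 0.508), a 1.27-fold lower signal.

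The helicase subunits lay below wild type, without a call. Their median change was -0.25, and all 6 were below 0. Mcm3 had 7.44, 7.43, 7.22, 7.28 and 6.32 in wild type and 6.08, 6.62, 6.63, 7.19 and 6.69 in dw/dw. Mcm5 had 7.76, 7.76, 7.84, 7.72 and 7.0 in wild type and 7.07, 6.97, 7.06, 7.98 and 7.22 in dw/dw. For both genes wild-type pool 5 was low within its group and dw/dw pool 4 was the highest of its group, so the groups overlapped. The changes were -0.50 for Mcm3 (SE 0.29, adjusted p = 0.707) and -0.36 for Mcm5 (SE 0.26, adjusted p = 0.813). Mcm2 had 6.84, 7.46, 6.64, 6.76 and 6.34 in wild type and 5.90, 6.69, 6.52, 6.73 and 6.70 in dw/dw. Only dw/dw pool 1 of Mcm2 lay below the wild-type range, and the change was -0.30 (SE 0.29, adjusted p = 0.882). Mcm4, Mcm6 and Mcm7 had changes of -0.20, -0.18 and -0.15. The 95% interval of Mcm7, the narrowest of the 6, ran from -0.41 to 0.12, and its dw/dw pools were close together, from 8.60 to 8.73, within the wild-type range of 8.43 to 9.08.

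Among the genes of nucleotide supply and the clamp, Rrm2 was lower by the most. Rrm2 is the small subunit of ribonucleotide reductase, which makes deoxynucleotides. It had 9.92, 10.16, 9.75, 9.84 and 10.19 in wild type and 9.45, 9.26, 9.48, 9.82 and 9.66 in dw/dw. All dw/dw pools but pool 4 lay below the wild-type range, and the change was -0.44 (SE 0.17, adjusted p = 0.447), 1.35-fold lower. Rrm1, the large subunit, had -0.20 (SE 0.18, adjusted p = 0.870), with 6.96 to 7.83 in wild type and 6.94 to 7.60 in dw/dw. Pcna, the sliding clamp of the polymerases, had 9.77 to 10.29 in wild type and 9.59 to 10.14 in dw/dw. Its change was -0.15, with a 95% interval of -0.42 to 0.11 that includes 0. Tyms, thymidylate synthase, was dim on this array at a mean of 3.53, and its change of -0.32 (adjusted p = 0.492) carries little weight.

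The cyclins E and E2f1, which act at the entry to S phase, made no call and differed among themselves. E2f1, the transcription factor, had 5.83, 5.56, 5.50, 5.26 and 4.97 in wild type and 4.93, 4.40, 4.31, 5.26 and 5.63 in dw/dw. Pools 1, 2 and 3 of dw/dw lay below the wild-type range and pools 4 and 5 inside it. The change of E2f1 was -0.52 (SE 0.27, adjusted p = 0.657), with the widest spread between dw/dw pools of the set (SD 0.56). Ccne2 had -0.12 (95% interval -0.47 to 0.23) and Ccne1 had 0.10 (95% interval -0.34 to 0.54).

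Cyclin A, encoded by Ccna2, acts in S phase and G2 and is destroyed early in mitosis. Its signal was 8.87, 9.15, 8.81, 8.90 and 8.71 in wild type and 8.11, 8.29, 8.53, 8.47 and 8.51 in dw/dw. The groups did not overlap, and the change was -0.50 (SE 0.20, adjusted p = 0.459), 1.42-fold lower. Cyclin B2, encoded by Ccnb2, activates Cdk1 for entry into mitosis. Its signal was 7.39, 7.32, 6.89, 7.15 and 6.45 in wild type and 6.29, 6.36, 6.87, 6.90 and 7.29 in dw/dw. Pools 1 and 2 of dw/dw lay below the wild-type range and dw/dw pool 5 near its top, and the change was -0.30 (SE 0.30, adjusted p = 0.887).

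Of the mitotic kinases, Aurka, which drives centrosome maturation, had the largest change of the set. Its signal was 5.04, 5.40, 5.11, 5.23 and 4.40 in wild type and 4.17, 4.26, 4.64, 4.37 and 4.23 in dw/dw. Wild-type pool 5 was far below the other wild-type pools, and dw/dw pool 3 alone lay above it. The change was -0.70 (SE 0.21, adjusted p = 0.211). Cdk1, the kinase that cyclins A and B activate, had 7.59, 7.62, 7.35, 7.64 and 7.03 in wild type and 6.83, 7.06, 7.33, 7.35 and 7.19 in dw/dw. Only dw/dw pool 1 lay below the wild-type range, and the change was -0.29 (SE 0.18, adjusted p = 0.738). Plk1, a kinase of mitotic entry and exit, had -0.24, with no dw/dw pool below wild-type pool 5 (4.41). Foxm1, a transcription factor for late cell cycle genes, had -0.07 (95% interval -0.42 to 0.27).

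The spindle checkpoint delays anaphase until kinetochores are attached. Bub1, one of its kinases, had 6.20, 6.55, 6.41, 6.27 and 6.21 in wild type and 5.93, 5.74, 5.72, 6.03 and 5.86 in dw/dw. The groups did not overlap, and the change was -0.47 (SE 0.15, adjusted p = 0.292), 1.39-fold lower. Bub1b, which encodes the related BubR1, had 6.34, 6.94, 6.32, 6.51 and 6.33 in wild type and 6.09, 6.08, 6.09, 6.29 and 6.67 in dw/dw. All dw/dw pools but pool 5 lay below wild type, and the change was -0.25 (SE 0.17, adjusted p = 0.779). Cdc20, which activates the anaphase-promoting complex, also had -0.25, with pool 3 of dw/dw (7.47) above all of wild type, and pools 1, 2 and 5 (6.78, 6.78 and 6.87) below it. Ttk, the kinase that starts checkpoint signalling, had -0.25 (adjusted p = 0.822).

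The 5 chromosome and kinetochore genes all lay below 0, with a median of -0.29 and no call. Top2a, which untangles DNA before chromosomes part, had 7.85, 8.21, 7.70, 7.95 and 7.79 in wild type and 7.05, 7.40, 7.36, 7.61 and 7.80 in dw/dw. All dw/dw pools but pool 5 lay below wild type, and the change was -0.45 (SE 0.23, adjusted p = 0.657). Cenpe, a kinetochore motor, had -0.35 (SE 0.20, adjusted p = 0.705). Cenpa, the histone variant of centromeres, had -0.27. Aurkb and Birc5, partners in the chromosomal passenger complex, both had -0.29. In Aurkb 4 dw/dw pools lay below wild type, while Birc5 in dw/dw ran from 8.28 in pool 1 to 9.38 in pool 5, above the wild-type maximum of 9.35.

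The spindle and cytokinesis genes had the lowest median of the roles with more than 1 gene, -0.42. Kif20a, a kinesin of the central spindle, had 5.32, 5.49, 5.43, 5.52 and 5.91 in wild type and 4.19, 5.07, 5.27, 5.15 and 5.32 in dw/dw. Its groups did not overlap, but wild-type pool 1 and dw/dw pool 5 were the same to 2 decimals and dw/dw pool 1 was far below the others. The change was -0.54 (SE 0.20, adjusted p = 0.404). Kif23, a kinesin of the midbody, had 7.05, 7.39, 6.69, 7.28 and 6.98 in wild type and 6.19, 6.44, 6.66, 6.75 and 6.73 in dw/dw. Pools 1, 2 and 3 of dw/dw lay below wild type, and the change was -0.53 (SE 0.20, adjusted p = 0.420). Kif11, the motor that separates spindle poles, had -0.32, and its wild-type pools were the most spread of the set, from 5.02 to 6.45. Nusap1, which bundles spindle microtubules, had -0.25 (SE 0.18, adjusted p = 0.802).

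**Figure D3:**
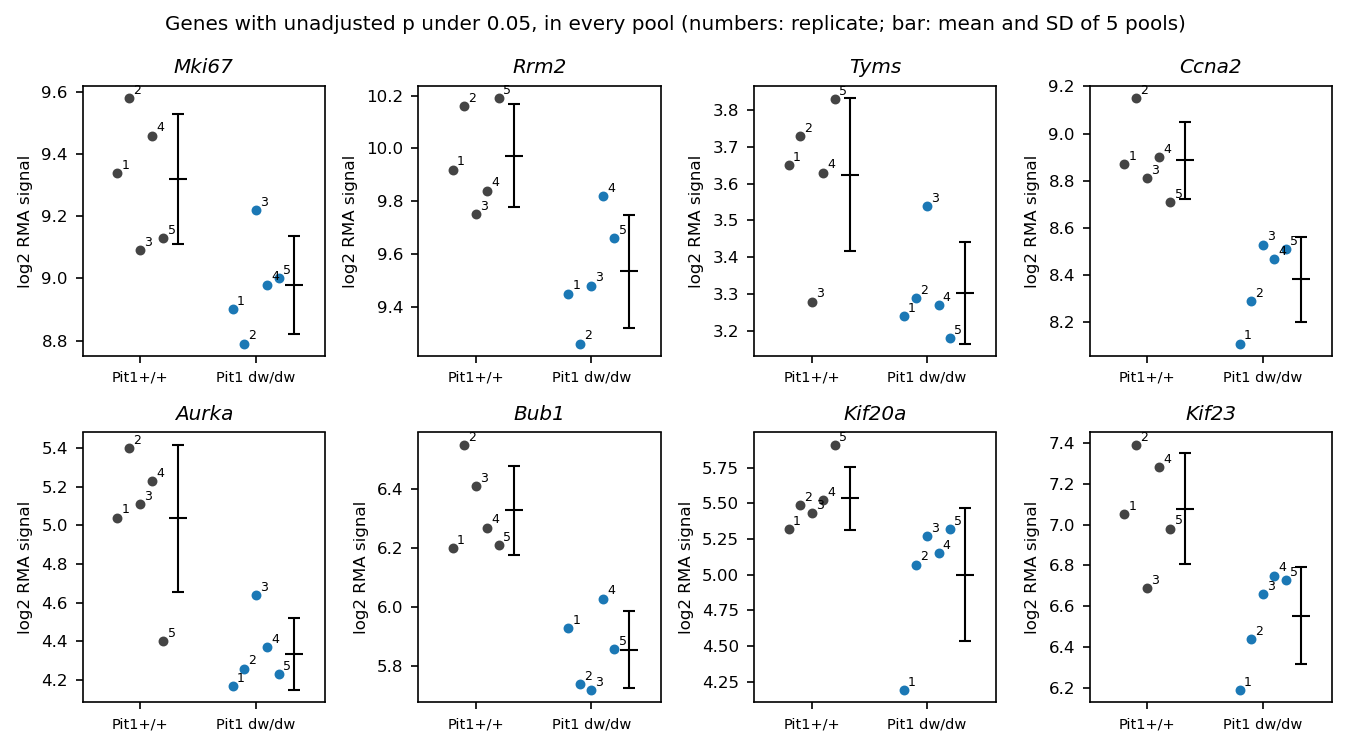
Each panel plots the log2 RMA signal of 1 gene in every pool, numbered by replicate, with the mean and SD of 5 pools per group, for the 8 genes with an unadjusted p under 0.05. The groups are apart for Ccna2, Bub1 and, narrowly, Kif20a, and overlap through wild-type pool 5 for Aurka, pool 3 for Rrm2, Tyms and Kif23, and both for Mki67.

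The level of the whole set varied from pool to pool. Against the mean of wild type, the median deviation over 33 genes was 0.02, 0.20, -0.11, 0.05 and -0.17 in wild-type pools 1 to 5 and -0.48, -0.48, -0.30, -0.14 and -0.12 in dw/dw. Pools 4 and 5 of dw/dw thus lay within the wild-type range, and pools 1, 2 and 3 below it. The same median over all genes stayed between -0.10 and 0.03. In dw/dw pools 1 to 5, 30, 32, 30, 27 and 23 genes lay below the wild-type mean. The 13 S phase genes had medians of -0.38, -0.27, -0.47, -0.03 and -0.12 in those pools, and the 19 mitotic genes had -0.55, -0.50, -0.26, -0.24 and -0.10. In dw/dw pools 1, 2 and 4 the mitotic genes had the lower median, in pool 3 the S phase genes did, and in pool 5 the medians were close.

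Markers of other tissues and array spread differed between these pools. Wild-type pool 2, with 29 of 33 genes above the mean of its group, had the lowest mesenchyme mean (8.52, against 9.24 to 9.58 in the other wild-type pools) and the lowest bone and cartilage mean (4.18, against 5.29 to 7.10). In dw/dw the mesenchyme mean over 7 genes was 9.12 to 9.70. All 7 of these genes lay above 0 in dw/dw against wild type, with a median of 0.25 and no call by limma (1 at an unadjusted p under 0.05). The bone and cartilage mean was 5.40 to 7.37 in dw/dw, with a list median of -0.04. The ganglion and Schwann mean was 9.52 in wild-type pool 3 and 8.86 in dw/dw pool 3, and 4.72 to 7.09 in the other pools. The progenitor mean was 6.81 to 7.21 in wild type and 6.94 to 7.11 in dw/dw. The pituitary marker mean, which includes Gh and Tshb, was 10.63 to 11.16 in wild type and 9.17 to 9.64 in dw/dw. Gh (-5.40) and Tshb (-5.13) had by far the lowest changes of that list. The list median was 0.14, with 4 of 7 genes above 0. The SD over all genes of an array was lowest in dw/dw pool 1 (2.47) and wild-type pool 5 (2.49) and at most 2.55 in the others. The difference between 3′ and 5′ probe sets of Gapdh, a measure of RNA integrity, was 1.96 to 2.97 in wild type and 1.75 to 2.57 in dw/dw. The part of tissue makeup and array spread in the changes of these genes was not tested beyond the fits without those pools.

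**Figure D4:**
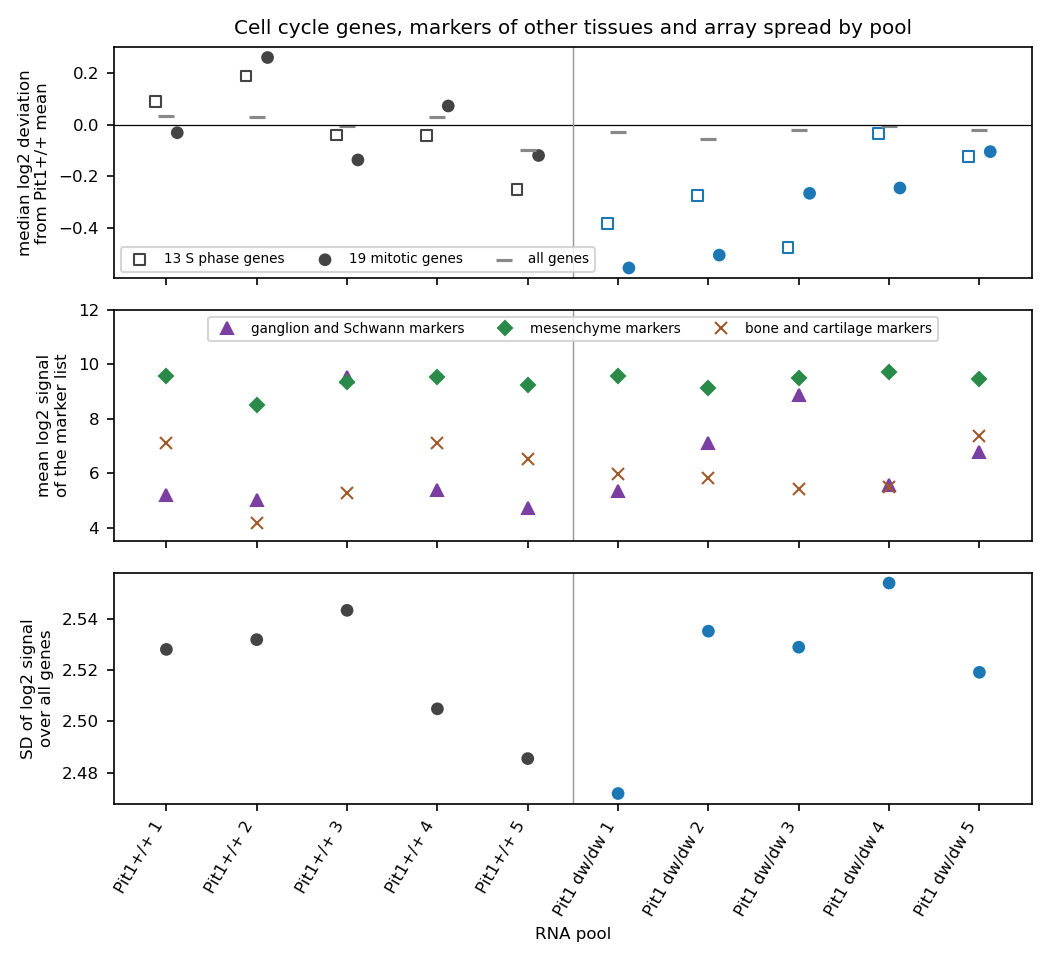
For each RNA pool the upper panel shows the median log2 deviation from the Pit1+/+ mean of 13 S phase genes, 19 mitotic genes and all genes, the middle panel the mean log2 signal of 3 marker lists, and the lower panel the SD of log2 signal over all genes. All dw/dw pools lie below the wild-type mean in both gene sets, from -0.55 in dw/dw pool 1 to -0.03 in dw/dw pool 4, and wild-type pool 2 lies highest.

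Other genes of replication and mitosis, taken from 7 lists of 103 genes with 99 measured, lay mostly below wild type too. Of the 99, 0 passed the limma test, beside the 0.77% of all genes given above. At an unadjusted p under 0.05, 22 were lower (22.2%, against 5.49% of all genes) and none higher. In all, 92 lay below 0 and the median was -0.27, and 12 of the 99 were dim (mean below 4.37). The groups did not overlap for 7 genes (7.07%, against 1.91% of all genes), all lower: Pola2, Cenpk, Zwilch, Racgap1, Aspm, Ckap5 and Ncapg2. The 22 became 12 without the pools with Prph above 7 and 13 without dw/dw pool 2, where 6.8% and 7.1% of all genes passed. The count was 34 without the 4 arrays of smallest SD and 49 with array weights, where 13.1% and 18.9% of all genes passed. In the main fit 8.46% of all genes passed, and these shares count either direction.

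Of 14 origin firing genes 13 lay below 0, with a median of -0.25. Cdc45, a subunit of the active helicase, had 4.93, 4.98, 4.55, 4.54 and 4.27 in wild type and 4.24, 3.96, 3.81, 4.44 and 4.27 in dw/dw. Pools 4 and 5 of dw/dw lay at or above its lowest wild-type pool, and the change was -0.51 (SE 0.17, adjusted p = 0.286). Gins3, of the same helicase, had -0.41 (adjusted p = 0.442), Dbf4, the activator of the origin-firing kinase Cdc7, had -0.39 (adjusted p = 0.430), and Cdc7 itself had -0.29 (adjusted p = 0.631). The other gene, Orc1, of the origin recognition complex, had 0.06. Orc1 and Cdc45 were dim, with means of 4.03 and 4.36 over all arrays. With array weights Cdc45 (adjusted p = 0.0417) and Gins3 (adjusted p = 0.0427) were called.

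Of 17 DNA synthesis genes 16 lay below 0, with a median of -0.26. Pole, the catalytic subunit of polymerase epsilon, had 6.90, 6.79, 6.83, 6.91 and 5.98 in wild type and 5.62, 6.01, 6.06, 6.54 and 6.14 in dw/dw. Wild-type pool 5 was again the low one of its group, and the change was -0.61 (SE 0.25, adjusted p = 0.480). Pole was called with array weights (-0.70, adjusted p = 0.0422). Pola2, of the primase complex, had 5.53 to 5.95 in wild type and 5.08 to 5.52 in dw/dw, without overlap, and a change of -0.46 (SE 0.19, adjusted p = 0.502). The flap endonuclease Fen1 had -0.23 and the clamp loader subunit Rfc4 had -0.19. The gene above 0 was Pold3, a subunit of polymerase delta, at 0.07.

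The kinetochore list had a median of -0.31, with 13 of 14 genes below 0. Zwilch, which takes part in checkpoint signalling at kinetochores, had 7.02, 7.35, 7.12, 7.05 and 7.88 in wild type and 6.65, 6.86, 6.70, 7.01 and 6.57 in dw/dw. The groups did not overlap, and the change was -0.53 (SE 0.16, adjusted p = 0.210). The centromere proteins Cenph and Cenpk had -0.53 (adjusted p = 0.252) and -0.42 (adjusted p = 0.425). The wild-type pools of Cenpk were within 7.81 to 7.86, and its dw/dw pools ran from 6.90 to 7.68. Knl1, a kinetochore scaffold that was dim at a mean of 3.75, had 0.13, the highest change of the 99 genes.

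All 20 spindle and cytokinesis genes of the related list lay below 0, with a median of -0.32. Racgap1, the partner of Kif23 in the centralspindlin complex, had 7.52, 7.90, 7.37, 7.42 and 7.26 in wild type and 6.01, 6.42, 6.72, 6.64 and 6.82 in dw/dw. The groups did not overlap, and its change of -0.98 (SE 0.28, adjusted p = 0.186), 1.97-fold lower, was the largest of the 99 genes. Racgap1 was called with only the wild-type and dw/dw pools in the fit (-0.98, adjusted p = 0.0232), with array weights (-0.94, adjusted p = 0.0173) and without the 4 arrays of smallest SD (-0.91, adjusted p = 0.0267). Aspm, a spindle pole protein, had 6.99 to 7.25 in wild type and 6.32 to 6.93 in dw/dw (-0.42, SE 0.13, adjusted p = 0.220). Ect2, which activates RhoA for cytokinesis, had -0.47 (adjusted p = 0.270), and the chromosome motor Kif4, dim at a mean of 4.27, had -0.53 (adjusted p = 0.401). Kif20b, a relative of Kif20a, had -0.58 (adjusted p = 0.408) and was called with array weights (-0.66, adjusted p = 0.0371).

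The condensin subunit Ncapg2 came nearest to the threshold of the 99. It had 6.41, 6.51, 6.53, 6.45 and 6.22 in wild type and 5.72, 5.82, 5.92, 6.10 and 5.97 in dw/dw, without overlap. Its change was -0.52 (SE 0.13, adjusted p = 0.0783), 1.44-fold lower, and it was called with a second quantile normalisation (-0.49, adjusted p = 0.0358) and with array weights (-0.51, adjusted p = 0.00907). Of its list of 12 condensation and separation genes 11 lay below 0, with a median of -0.30. The condensin subunits Ncapd2 and Smc4 had -0.38 (adjusted p = 0.511) and -0.30 (adjusted p = 0.519). The gene above 0 was Lmnb1, a nuclear lamin, at 0.03.

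The E2F and MuvB regulators had the median nearest to 0 of the 7 lists, -0.21, with 8 of 11 below 0. E2f8, an atypical E2F that represses replication genes late in S phase, had 6.20, 6.58, 6.08, 6.28 and 6.41 in wild type and 5.91, 5.93, 5.74, 6.12 and 5.68 in dw/dw. Only dw/dw pool 4 reached the wild-type range, and the change was -0.44 (SE 0.16, adjusted p = 0.416). The 3 genes at or above 0 were E2f2 (0.00), E2f3 (0.12) and Lin9 (0.00). All 11 replication checkpoint and repair genes lay below 0, with a median of -0.24. The smallest adjusted p was that of the exonuclease Exo1, which was dim at a mean of 4.27, with 4.38 to 4.70 in wild type, 3.98 to 4.42 in dw/dw and a change of -0.33 (SE 0.11, adjusted p = 0.286).

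**Figure D5:**
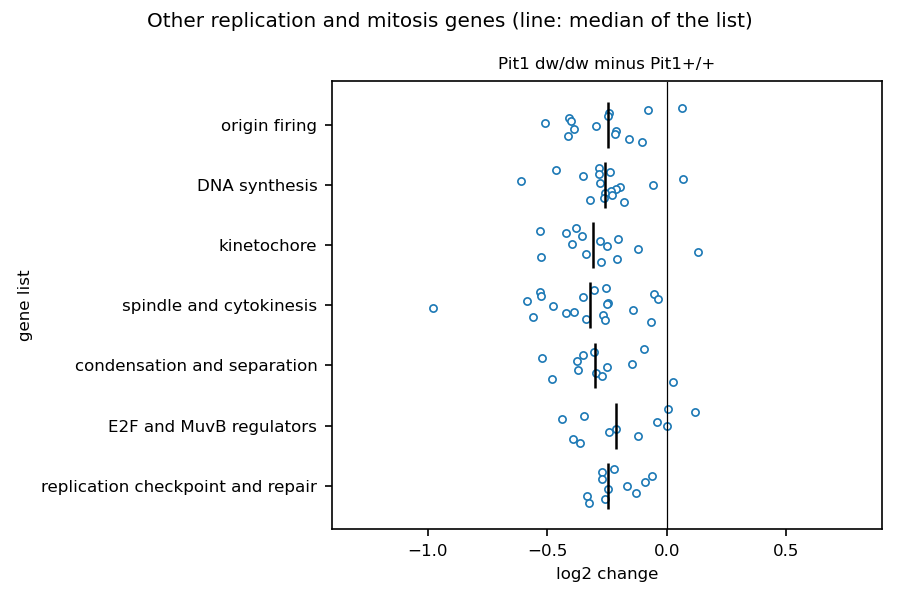
Each point is the fitted log2 change of 1 gene in Pit1dw/dw against Pit1+/+, for 7 lists of other replication and mitosis genes, with a line at the median of the list. Every list median is below 0, from -0.32 for spindle and cytokinesis to -0.21 for E2F and MuvB regulators, and Racgap1 at -0.98 lies farthest left.

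For many of these genes the arrays carry more than 1 probe set, and the probe sets did not always give the same value. The 33 genes had 78 probe sets, with several for 25 genes. When every probe set was tested on its own, 67 of 78 lay below 0 and none was called. The sign differed between probe sets of the same gene for 11 of 25 genes. In all of these but Ccne1, the probe set above 0 was dim (mean below 4.37). Values were close for Ccna2 (-0.50 and -0.48), Rrm2 (-0.44 and -0.49, with a dim probe set at 0.00) and Mcm5 (-0.36 and -0.45, with a dim one at 0.05). They were not for Aurka (-0.70, with a dim probe set at -0.02) or Bub1 (-0.47, with a dim one at -0.11). Ccne1, the only gene above 0, had 0.10 from the brighter of its probe sets and -0.50 from the other, so its direction depended on the probe set. Foxm1 likewise had -0.07 and -0.49 from its brightest. Ccnb2, Mki67, Kif20a, Pcna, Ccne2, Cdk1, Plk1 and Birc5 have 1 probe set each, so theirs cannot be compared.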

How the data were processed

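RNA pools were compared on Affymetrix Mouse Genome 430 2.0 arrays, 15 in all. The deposited values are log2 signals that the authors made with RMA, per the submitters' processing notes, with version and settings not given in the sources used here. RMA corrects background, normalises quantiles across arrays and summarises the probes of a set. The number of arrays limits the precision. Of 45101 probe sets, 34945 carried 1 gene name, 932 several and 9160 none, besides 64 controls. Each of 18193 genes was read from 1 probe set, the brightest on average across the 15 arrays.

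A linear model with 3 group means was fitted in limma 3.58.1 (R 4.3.3), with empirical Bayes moderation, two-sided tests and Benjamini-Hochberg adjustment over all 18193 genes. A further group of 5 arrays shares in this fit, which sets the spread, and is not reported here. Every adjusted p in the text comes from such a fit, and "called" means an adjusted p under 0.05. The steps were tested on simulated, independent genes with changes of 1 or 2 log2 units. Changes as small as those of the set were not simulated. A signal that is lower by 1 log2 unit is 2-fold lower. Quantile normalisation gives arrays nearly the same distribution, so a shift shared by all genes would not be seen. Tables and promoter counts were made with pandas 2.3.3.

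Genes and lists were chosen with earlier results of these data known. All listed genes of the set were named, together with up to 4 genes of each related list with the smallest adjusted p, those whose groups did not overlap or that were called under an alternative, those at or above 0, and marker genes beside a result; the last kinds were chosen after their values were seen. Results were recomputed under up to 21 alternatives: scaling, probe set choice, filters, prior, weights, samples in the fit, the replicate block and each of the 10 pools left out. Mcm7, Tyms, Aurkb, Birc5 and Kif20a have 20 each, since 1 filter removed the gene. Of these, 2 were chosen after seeing the data: without pools with Prph above 7 and without the 4 arrays of smallest SD.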

Additional observations from a re-analysis of the deposited data

Results flagged for a closer look

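In 8 of 68 groups of 5 pools (11.76%), 1 pool lay apart from the rest by more than Dixon's 95% criterion, a gap above 0.71 of the group's range. Chance gives about 1 in 20 such groups if they are independent. These groups share the same pools, so the share cannot show an excess. Pool 5 of wild type was low for Mcm3 (6.32, next 7.22), Mcm5 (7.0, next 7.72) and Plk1 (4.41, next 5.07). Pool 2 of wild type was high for Aurkb (5.88, next 5.44). Pool 1 of dw/dw was low for Mcm2 (5.90, next 6.52), Mcm7 (8.60, next 8.70) and Kif20a (4.19, next 5.07), and dw/dw pool 4 was high for Mcm5 (7.98, next 7.22). Wild-type pool 5 and dw/dw pool 1 had the smallest array SD of the 10 pools, and the part of that spread in these values was not tested beyond the fit without them.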

How the results depend on the processing

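Of 33 results for single S phase and mitosis genes, 0 were called by limma (8 at an unadjusted p under 0.05), 1 (Aurka) gained a call under some of up to 21 alternatives, and 32 were never called. No call changed sign, but 4 uncalled genes did: with the mean of all probe sets Rrm1 (0.02) and Ccne1 (-0.20), the latter also without _x_at, _s_at and _a_at probe sets (-0.50), without the pools with Prph above 7 Ccne2 (0.12), and without the smallest-SD arrays Foxm1 (0.0077). The count of 0 became 1 with array weights and without the 4 arrays of smallest SD, and 0 to 1 with single pools left out. For the related lists the 0 (22 at an unadjusted p under 0.05) became 6 with array weights and 1 with a second quantile normalisation, only the 2 groups compared or the smallest-SD arrays left out, and stayed 0 with each of the 10 pools left out. The causes were not tested. The median change of the set kept its sign, from -0.34 to -0.22. All genes called, 140, became 571 with array weights, 51 without the pools with Prph above 7, and 83 to 161 with single pools left out. Whether replicate numbers pair the pools was not settled. Same-number correlations ran from -0.196 to 0.639, which was the highest of all pairs. Of them 3 of 5 were over 0.1, and 2 of 5 pools correlated best with their own number. With the replicate block 0 genes of the set were called, the median was -0.29 and 137 genes in all were called. At an unadjusted p under 0.05 by limma, 8 genes of the set passed there, beside 9.15% of all genes in either direction. Arrays of the group not reported were not left out 1 at a time. The fit with only the 2 groups compared left out that whole group. The fit without the 4 arrays of smallest SD left out wild-type pool 5, dw/dw pool 1 and arrays of that group. Low signal limits Tyms and 12 related genes, and the dw/dw mean of Aurka (4.33) also lay below the dim mark. The 5 pools a group limit every interval.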
